A study of Mus musculus with 38 samples.

Results

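Chromatin at 9 T-box genes was compared between IκBα-WT (WT) and IκBα-KO (KO) mouse embryonic stem cells (mESCs). The genes were Tbx1, Tbx2, Tbx3, Tbx4, Tbx5, Tbx15, Tbx18, Tbx20 and Tbx21, 9 of the 17 T-box family genes and of the 21938 protein-coding genes of the annotation (GENCODE M21, GRCm38). They were chosen by name, as Tbx3, its chromosomal neighbour Tbx5 and paralogues, because the lower H3K27me3 at Tbx3 in the KO was already known from these libraries. That H3K27me3 difference selected the list, so the H3K27me3 values below are a description without a test. The other 4 marks took no part in the choice and were tested. The study had, however, already reported more H3K4me3 and H3K27ac at Tbx3 from these libraries. Tests of these marks at Tbx3 are therefore not independent of that earlier result.

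The cells were of the ES-E14TG2a line, grown in serum with leukaemia inhibitory factor and collected at 0 h, before any differentiation. In the KO, guide RNAs against exon 1 of Nfkbia, the gene of the NF-κB inhibitor IκBα, had been used, and the WT cells had received scrambled guides. Each genotype had 3 libraries for each of 5 marks, described by the study as separate clones of this 1 line, so 30 of the 38 samples were ChIP libraries and 8 were inputs. No other allele, treatment or time entered.

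T-box genes encode transcription factors that share a DNA-binding domain and act mostly in the patterning of mesoderm, heart and limbs. In mESCs most of them are held by Polycomb complexes, which deposit H3K27me3, while their promoters also carry H3K4me3, a combination called bivalent. Tbx3 is unlike its relatives in that it is also part of the network that supports self-renewal of mESCs. H3K27ac marks active promoters and enhancers, H3K4me1 marks enhancers in active or poised state, and H3K9me3 marks heterochromatin.

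Each gene was read over its body and 5 kb on either side, called its window. A call is a region that the authors' peak caller reported in 1 library, and called sequence is the number of bp of the window under calls. For the 4 broad marks the reads of a call were spread evenly along it, and ChIP reads per kb of window are raw reads, not scaled for depth. WT libraries held 8910890 to 9972166 ChIP reads in H3K27me3 calls and KO libraries 10159457 to 10938375. In H3K27ac calls WT held 22943091 to 25096639 and KO 24233628 to 28339766. Over both genotypes H3K9me3 libraries held 8548342 to 12105343 and H3K4me1 libraries 34736939 to 35951506. The H3K4me3 lists held 21836 to 26806 peaks and no counts. Of 7 mESC marker promoters 6 had H3K27ac and 5 had H3K4me3 in all 6 libraries. Esrrb was without either and had H3K27me3 in all 6. All 4 mesoderm and all 3 neural marker promoters had H3K27me3 in all 6 libraries. H3K27ac in all 6 was also seen at 3 of the mesoderm and 3 of the neural promoters, so it did not set the mESC markers apart. H3K4me3 at Nfkbia covered 1226, 1168 and 1523 bp in WT and 235, 820 and 1286 bp in KO, so the groups overlapped and the labels could not be checked at the targeted gene.

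Tbx3 (ENSMUSG00000018604) lies on the plus strand of chromosome 5, at 119670669 to 119684724. H3K4me3 was called over its start in 1 of 3 WT and 2 of 3 KO libraries. It also held an inner H3K4me3 peak in all 6 libraries, with a summit 9939 to 10138 bp after the start of the gene. The sequence that all 6 peaks shared was chr5:119680465-119681039 (575 bp), within a coding exon of Tbx3 at 119680395 to 119681065, exon 6 of transcript ENSMUST00000079719.10. Its middle 250 bases are shown because they lay under an H3K27me3 call in 3 of 3 WT libraries and in 1 of 3 KO libraries, replicate 2. They stand beside the 250 bases before the start of Tbx20 and Tbx21 and before an inner start of Tbx4, which differ in how often H3K4me3 was called there. All are GRCm38.p6, written 5′ to 3′ on the strand of the gene, with the dinucleotide CG in capitals.
Tbx3, inner peak, chr5:119680627-119680876, plus strand: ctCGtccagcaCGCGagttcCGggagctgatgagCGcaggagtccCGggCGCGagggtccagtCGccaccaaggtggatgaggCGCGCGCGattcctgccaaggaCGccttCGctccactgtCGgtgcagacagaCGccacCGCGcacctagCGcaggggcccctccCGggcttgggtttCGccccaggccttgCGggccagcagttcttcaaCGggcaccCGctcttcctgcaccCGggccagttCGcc
Tbx20, before the start, chr9:24774304-24774553, minus strand: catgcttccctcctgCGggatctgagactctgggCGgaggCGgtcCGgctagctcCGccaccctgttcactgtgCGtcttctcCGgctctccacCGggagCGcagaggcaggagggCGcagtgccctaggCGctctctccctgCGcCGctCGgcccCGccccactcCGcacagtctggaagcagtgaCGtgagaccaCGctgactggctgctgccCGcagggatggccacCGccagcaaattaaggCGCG
Tbx21, before the start, chr11:97115332-97115581, minus strand: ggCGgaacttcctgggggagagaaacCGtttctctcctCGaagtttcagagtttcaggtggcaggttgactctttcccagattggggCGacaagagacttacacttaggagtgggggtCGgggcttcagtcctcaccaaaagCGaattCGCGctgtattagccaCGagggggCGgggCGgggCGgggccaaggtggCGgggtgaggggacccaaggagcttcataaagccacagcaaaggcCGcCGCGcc
Tbx4, before an inner start, chr11:85896515-85896764, plus strand: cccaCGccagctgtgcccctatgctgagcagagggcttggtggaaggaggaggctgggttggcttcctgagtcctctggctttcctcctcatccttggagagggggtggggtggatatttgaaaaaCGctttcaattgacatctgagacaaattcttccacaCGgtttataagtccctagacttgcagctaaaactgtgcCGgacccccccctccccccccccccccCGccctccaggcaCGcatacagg

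The promoters come from RefSeq, whose table held 5 of the 9 genes; Tbx2, Tbx3, Tbx5 and Tbx15 were not in it. The inner stretch of Tbx3 had 27 CG dinucleotides, and 8.56% of 32851 promoters had as many or more in the 250 bases before their start (median 6). The promoter of Tbx20, a regulator of heart development, had 22 CG, a number reached by 14.8% of promoters, and H3K4me3 was called on it in 3 of 3 WT and 3 of 3 KO libraries. That of Tbx21, which encodes the T-helper cell regulator T-bet, had 16 (25.4% of promoters), with calls in 1 WT and 3 KO libraries. The inner start of the hindlimb gene Tbx4 had 6 CG (50.4% of promoters), and no library had an H3K4me3 call on it. At the annotated start of Tbx4, 85886422, H3K4me3 was called in 2 WT libraries and in 0 KO libraries. H3K27me3 was called on all 3 promoters in all 6 libraries. The promoters of Tbx1 and Tbx18 are not shown. At Tbx1 the promoter with 17 CG had H3K4me3 calls in 0 WT and 1 KO libraries. Its promoter with 10 CG had them in 1 WT and 0 KO libraries. The Tbx18 promoter had 15 CG and calls in 1 WT and 1 KO library. With these included, H3K4me3 calls did not follow the number of CG.

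H3K27me3 over Tbx3 was lower in every KO library. In the window of Tbx3, a repressor that takes part in mESC self-renewal and in limb and mammary development, calls covered 23256, 22656 and 23256 bp in WT and 17656, 18256 and 17256 bp in KO. The ChIP reads per kb of window were 73.9, 79.0 and 68.6 in WT and 29.9, 30.2 and 32.0 in KO, with means of 73.8 ± 5.22 and 30.7 ± 1.16 (SD, n = 3 each), a log2 KO/WT of −1.27. The groups did not overlap on either measure, and the difference in reads was larger than that in covered length. Among 11885 genes with H3K27me3 in both genotypes, 538 had a lower log2 ratio of reads than Tbx3, and the median of all was 0.06. Windows whose groups did not overlap were common: 11.4% of 13437 genes with a call had lower and 17.2% higher reads in all 3 KO libraries, and for covered bp these shares were 7.61% and 10.9%.

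**Figure D1:**
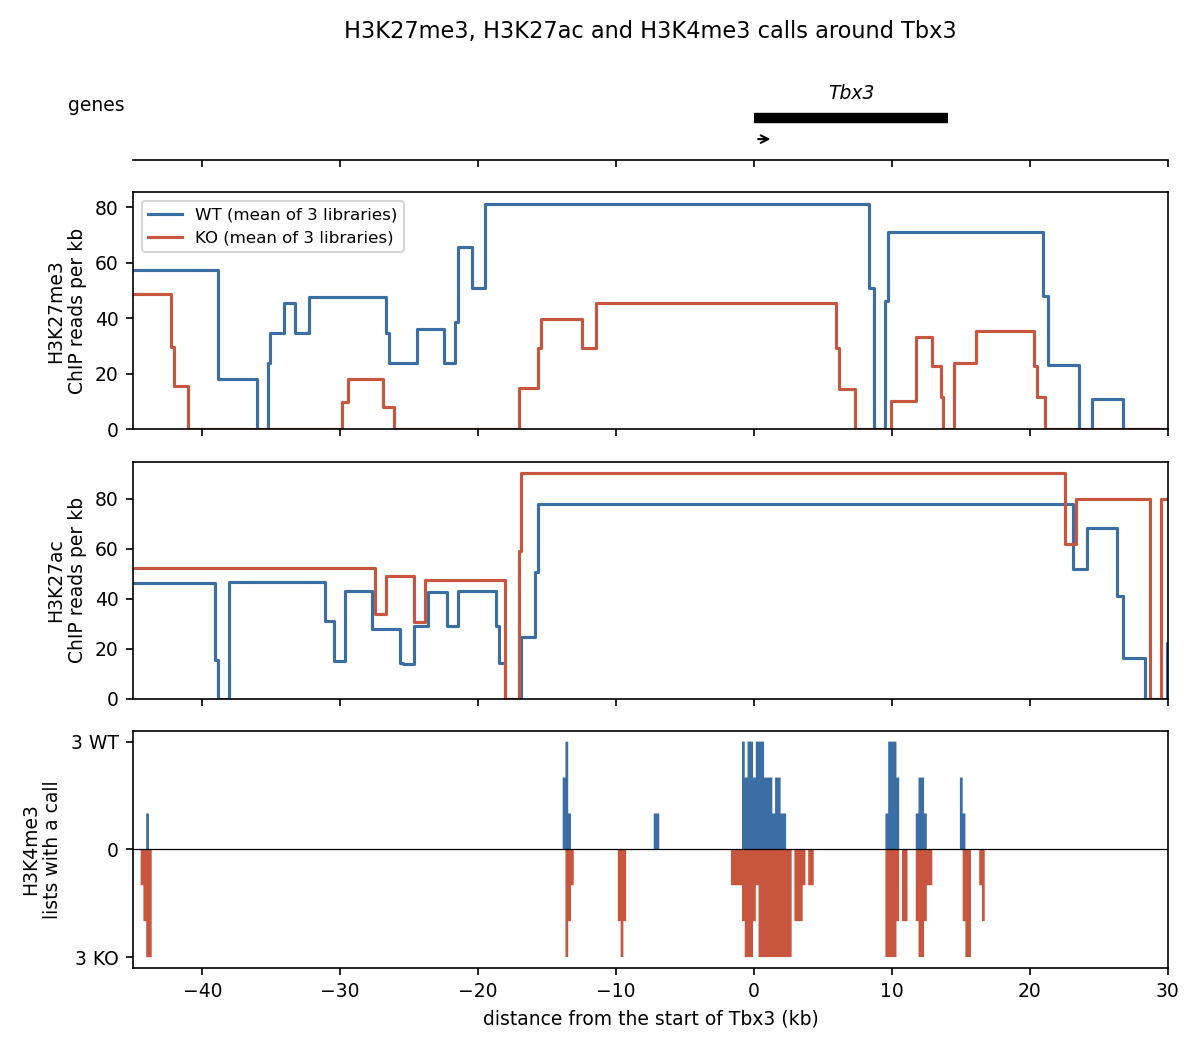
H3K27me3 and H3K27ac ChIP reads per kb (lines, mean of the 3 libraries of a genotype, in steps of 200 bp, 0 where no call lies) and the number of H3K4me3 lists with a call (WT upward, KO downward), by distance from the start of Tbx3 in kb. The KO line of H3K27me3 lies below the WT line across the gene (30.7 against 73.8 reads per kb of window). The KO line of H3K27ac lies above its WT line. Reads are not scaled for depth.

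The call over the start of Tbx3 was both shorter and less dense in the KO. It began 21.5, 19.5 and 35.3 kb before the start in WT and 17.1, 15.7 and 11.5 kb before it in KO. It ended 8.7, 8.3 and 8.7 kb after the start in WT, against 6.1, 7.3 and 5.9 kb in KO. The gap to the next call measured 800, 1400 and 800 bp in WT and 5600, 2600 and 5800 bp in KO. In WT the next call began at 119680201, 119680401 and 119680201, before the stretch shared by the inner H3K4me3 peaks. In KO it began at 119682401, 119680601 and 119682401, so that the gap held that stretch in full in replicates 1 and 3 and in part in replicate 2. Each WT library had 2 calls in the window and each KO library 3. Shorter calls were therefore seen at the far side, at the inner gap and in the number of pieces, in all 3 KO libraries.

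Within that call the density of ChIP reads was 81.0, 90.8 and 72.0 per kb in WT and 44.8, 43.1 and 49.0 per kb in KO. The log2 enrichment over input was 1.82, 2.15 and 1.85 in WT and 1.07, 1.13 and 1.2 in KO. Input reads moved the other way, with 20.0, 20.5 and 19.1 per kb of this call in WT and 23.5, 23.4 and 23.8 in KO. The same 1 input per genotype served all 3 libraries, so these input values are not replicates. Over the called sequence of the whole window the log2 KO/WT of input was 0.29 at Tbx3 and 0.05 to 0.11 at the other 8 genes, and its part in the result was not tested.

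By calls the difference was not even along the gene. From 5 to 10 kb after the start, WT had 67.0, 64.5 and 60.2 ChIP reads per kb and KO 10.1, 20.5 and 9.1, a log2 of −2.27. From 10 to 15 kb the values were 69.7, 74.1 and 69.5 in WT and 17.1, 18.2 and 15.8 in KO, a log2 of −2.06. From 15 to 19.1 kb they were 69.7, 74.1 and 69.5 in WT against 33.5, 24.9 and 38.4 in KO, a log2 of −1.14. The first 5 kb and the 5 kb before the start share 1 call in each library and had a log2 of −0.83. By this measure the body of Tbx3 was lower by more than its start, which kept a call in all 6 libraries. Reads were spread evenly along each call, and sequence without a call had none. The body values therefore include the KO gaps, and the start values average a call that reaches far upstream. Local signal at the start and in the body was not measured. In the promoter window of the study, 5000 bp before to 100 bp after the start, H3K27me3 covered every bp in all 6 libraries and the mean H3K4me3 coverage was 235 bp higher in KO.

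In a fit of edgeR's quasi-likelihood model over 18809 merged H3K27me3 regions called in all 6 libraries, with covered length as offset, the region over the start of Tbx3 (119635401 to 119679400) had a log2 KO/WT of −0.85 ± 0.08 (SE). The region after the inner peak (119680201 to 119694200) was at −1.13 ± 0.12 (SE), and 0.0478% of all fitted regions had a lower value than the first. The fitted regions were 32.3% of 58154 merged regions. Those that lost their call in a KO library were not among them, so this rank leaves such losses out. By reads over gene windows, 4.53% of 11885 genes had a lower log2 than Tbx3. The median of all fitted regions was −0.09. Without the length offset these values were −1.58 and −1.77, since the calls were also shorter. The 11 other regions that touch a T-box window lay between −0.27 and 0.05.

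H3K4me3 covered more of Tbx3 in the KO. Peaks covered 3221, 3737 and 3669 bp of its window in WT and 7508, 6005 and 7802 bp in KO. The means were 3542 ± 280 and 7105 ± 964 bp (SD, n = 3 each), a ratio of 2.01, and the groups did not overlap. The two-sided exact permutation test gave p = 0.1, the smallest that 3 against 3 libraries allow, and after Benjamini-Hochberg adjustment over 15151 genes with a peak no gene went below 0.315. Higher H3K4me3 coverage in all 3 KO libraries was common, at 24.5% of these genes, and lower coverage in all 3 was seen at 7.25%. Of the 14497 genes with peaks in both genotypes 456 had a larger log2 ratio than Tbx3 (1.00), and the median was 0.12.

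The added sequence lay mostly after the start. In the first 5 kb of the gene H3K4me3 covered 1485, 1873 and 1120 bp in WT and 3314, 2488 and 3773 bp in KO (exact permutation p = 0.1, n = 3 each). In the 5 kb before the start it covered 835, 660 and 774 bp in WT and 663, 1557 and 786 bp in KO, and the groups overlapped (exact permutation p = 0.6, n = 3 each). At the end of the window, from 15 to 19.1 kb after the start, it covered 175, 0 and 239 bp in WT and 1245, 627 and 788 bp in KO (exact permutation p = 0.1, n = 3 each). The inner peak measured 676, 654 and 817 bp in WT and 920, 874 and 999 bp in KO. Its fold enrichment over input, 4.5, 7.9 and 6.8 in WT and 7.6, 7.6 and 6.7 in KO, overlapped between the genotypes. The inner peak was therefore longer in each KO library, and its fold was not separated.

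In WT all H3K4me3 at Tbx3 lay inside sequence that at least 2 of 3 WT libraries called for H3K27me3. In KO 6093, 5131 and 6439 bp lay inside the KO H3K27me3 and 1415, 874 and 1363 bp outside it. That consensus measured 23256 bp in WT and 17456 bp in KO, with 5800 bp called in WT alone and 0 bp in KO alone. At the other 8 genes no H3K4me3 lay outside the H3K27me3 consensus of its own genotype. In KO Tbx3 thus kept sequence called for both marks and had H3K4me3 outside the KO consensus beside it. In KO replicate 2 the 874 bp outside were its inner peak, part of which lay under an H3K27me3 call of that library.

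H3K27ac and H3K4me1 covered the whole window of Tbx3 in all 6 libraries. H3K27ac stood at 74.0, 78.8 and 81.6 ChIP reads per kb in WT and 93.2, 92.5 and 85.4 in KO, a log2 of 0.21 (exact permutation p = 0.1, n = 3 each). The groups did not overlap on these reads, which are not scaled for depth. KO replicates 1 and 2 held more H3K27ac reads in calls (27940902 and 28339766) than any WT library (22943091 to 25096639), and KO replicate 3 held 24233628. Of 16607 genes with a call, 24.1% had higher H3K27ac reads in all 3 KO libraries and 10.8% had lower ones. The median log2 of all genes was 0.12. H3K4me1 was at 116.1, 99.0 and 105.2 in WT and 105.1, 97.8 and 106.3 in KO, with overlapping groups (exact permutation p = 0.5, n = 3 each). H3K9me3 was not called at Tbx3 in any library.

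The H3K27ac region over Tbx3 (119653601 to 119699400) depended on the scaling. In edgeR's quasi-likelihood test with trimmed mean of M-values (TMM) scaling of the reads it had a log2 of 0.08 ± 0.03 (SE) at a Benjamini-Hochberg adjusted p of 0.0779, while the median over 24039 regions stood at −0.13. Relative to that median it was higher. With TMM on reads per kb of call, a scaling chosen after seeing the data that put the median at 0, the same edgeR test gave 0.21 ± 0.03 (SE) at an adjusted p of 0.000567. That scaling called 2099 regions higher and 1064 lower, against 721 (3%) and 4454 (18.5%) in the first fit, so the direction of single H3K27ac calls is not secure.

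Tbx5, the neighbour of Tbx3 on chromosome 5 (ENSMUSG00000018263, 119832668 to 119885219), begins 147943 bp after the end of Tbx3 and directs forelimb and heart development. Its H3K27me3 did not follow that of Tbx3. Calls covered 50333, 53733 and 52933 bp of its window in WT and 53133, 54352 and 56733 bp in KO. The ChIP reads per kb, not scaled for depth, were 49.4, 51.2 and 54.0 in WT and 49.8, 52.9 and 52.0 in KO. This was a log2 of 0.00, and the groups overlapped on both measures. In the edgeR fit its largest H3K27me3 region (119762601 to 119863800) was at −0.19 ± 0.06 (SE), beside the median of −0.09 over all regions, and the other 2 were at 0.05 ± 0.11 and −0.09 ± 0.14 (SE).

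**Figure D2:**
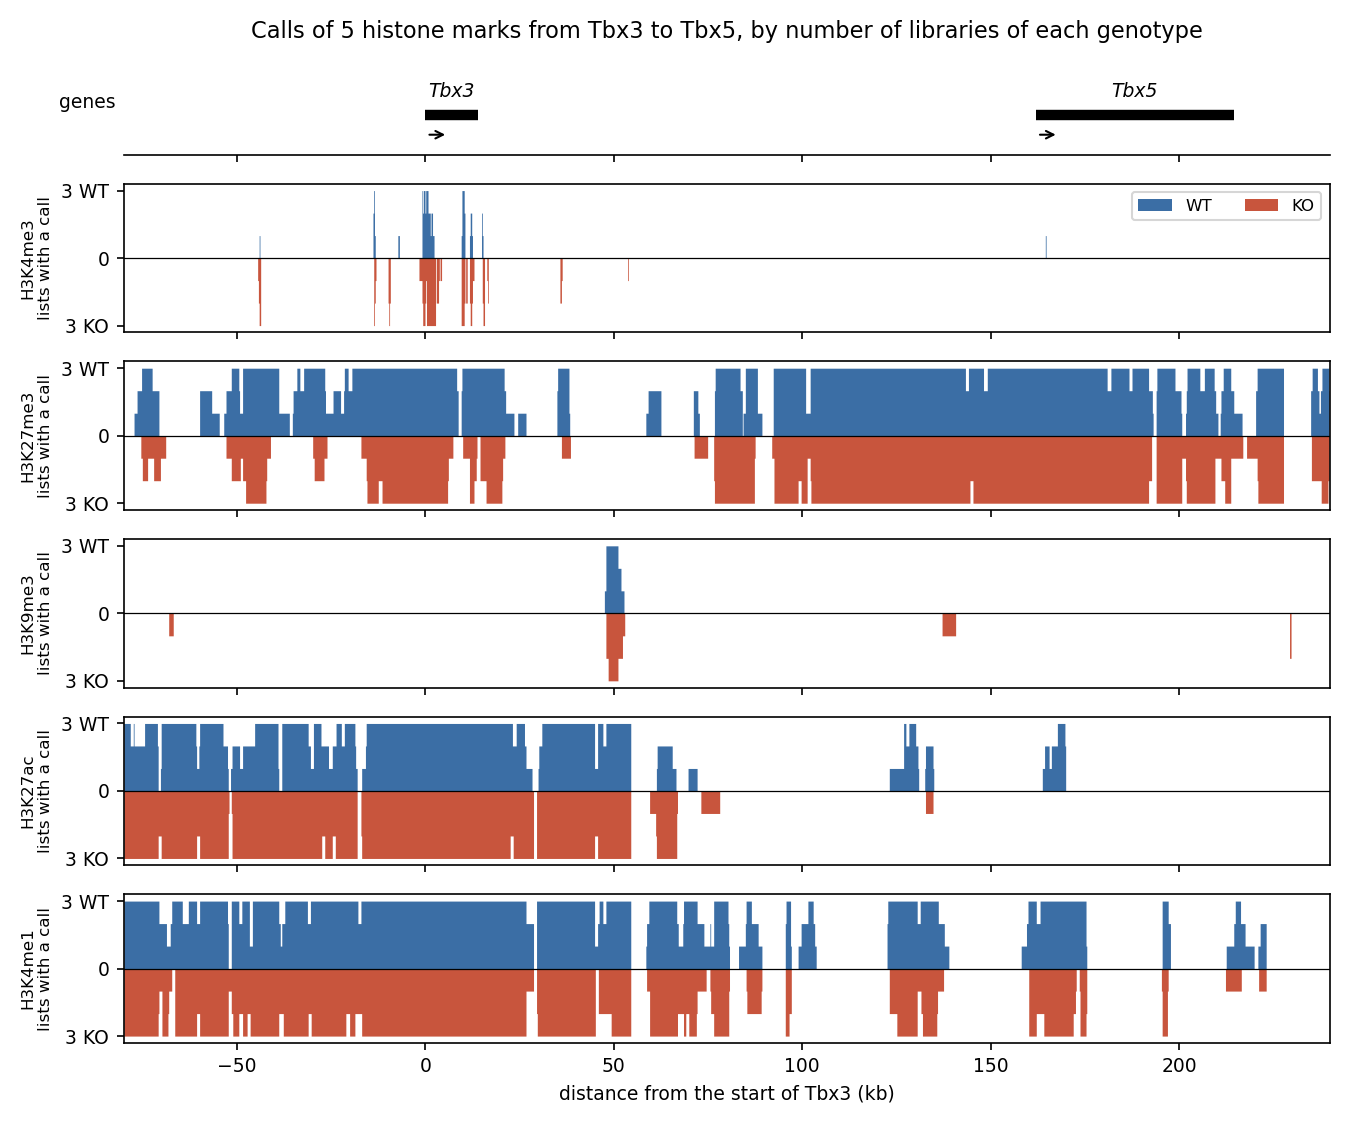
Number of libraries with a call (WT upward, KO downward, 0 to 3) for 5 marks in steps of 200 bp, by distance from the start of Tbx3 in kb, with both genes drawn as bars and arrows for their direction. H3K27me3 calls around Tbx3 are shorter in KO, those in the 69 kb next to Tbx5 overlap between the genotypes (59.3 to 68.7 reads per kb in WT, 59.0 to 62.2 in KO), and H3K27ac calls at Tbx5 are seen in WT alone.

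The lower H3K27me3 reached outward from Tbx3 but not as far as Tbx5. In the 70 kb before the Tbx3 window the ChIP reads per kb were 36.2, 34.4 and 46.4 in WT and 15.9, 14.9 and 11.8 in KO. In the 69 kb that follow the window they were 11.5, 14.0 and 14.1 in WT and 10.6, 8.2 and 7.6 in KO. In the 69 kb next to Tbx5 they were 59.3, 68.7 and 65.1 in WT and 62.2, 61.8 and 59.0 in KO. By reads the first stretches were separated between the genotypes, that after Tbx3 narrowly, and the last overlapped. Covered sequence in the 69 kb after the window overlapped, with 16771, 23571 and 21571 bp in WT and 18476, 12876 and 11876 bp in KO.

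H3K27ac ran the opposite way on both sides of Tbx3. In the 70 kb before the window it was at 47.9, 44.8 and 48.4 ChIP reads per kb in WT and 64.6, 69.7 and 60.0 in KO, and in the 69 kb after it at 32.7, 31.6 and 34.7 in WT and 45.7, 48.3 and 40.2 in KO (exact permutation p = 0.1 each, n = 3 each). In the 69 kb next to Tbx5 it was at 3.7, 4.1 and 3.9 in WT and 0.0, 1.4 and 0.0 in KO (exact permutation p = 0.1, n = 3 each). Calls that cross the borders put reads of 1 call into neighbouring stretches, so these are not independent values. H3K4me3 peaks in the 70 kb before the window covered 550, 584 and 637 bp in WT and 1583, 1447 and 1482 bp in KO (exact permutation p = 0.1, n = 3 each).

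Within Tbx5 itself the marks of activity were weak. H3K27ac calls covered 4000, 5400 and 3800 bp of its window in WT, all in the first 8 kb of the gene, and none was present in any KO library (exact permutation p = 0.1, n = 3 each). The WT calls were weak, with a log2 enrichment over input of 0.31 to 0.68. H3K4me1 was at 30.4, 27.1 and 26.9 ChIP reads per kb in WT and 19.9, 23.9 and 19.3 in KO (exact permutation p = 0.1, n = 3 each). H3K4me3 was called in 1 of 6 libraries, with 235 bp in WT replicate 3. The KO lists held fewer H3K27ac calls (44977 to 47975) than the WT lists (51932 to 57645). They covered more sequence, however, with 410.6 to 419.2 Mb against 380.4 to 392.5 Mb in WT. With the same number of top-ranked calls in each list the difference at Tbx5 went from −4400 to −2400 bp and its groups overlapped.

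By unscaled ChIP reads H3K27me3 at the paralogues was close to equal in the genotypes. Every KO library, however, held more H3K27me3 reads in calls than any WT library (10159457 to 10938375 against 8910890 to 9972166). In the edgeR fit, which scales the libraries, 12 of 13 regions at T-box windows, those of Tbx3 among them, lay below 0. Their median was −0.19, against −0.09 over all fitted regions. The log2 KO/WT of ChIP reads per kb lay between −0.13 and 0.01 at the 8 genes other than Tbx3, and the median over all 9 was −0.10, against 0.06 over all genes. Tbx2, a repressor closely related to Tbx3, carried the most H3K27me3, with 139.8, 147.3 and 167.7 reads per kb in WT and 136.7, 149.2 and 131.6 in KO. Tbx1, needed for pharyngeal arches and the heart outflow tract, had 127.0, 129.7 and 123.3 in WT and 113.6, 136.5 and 121.4 in KO. At both genes the groups overlapped.

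Tbx4, which follows Tbx2 on chromosome 11 and acts in hindlimb and lung development, had 64.9, 67.1 and 71.7 reads per kb in WT and 65.3, 68.3 and 67.8 in KO. The windows of Tbx2 and Tbx4 were covered in full in all 6 libraries, by regions that stayed separate. Tbx15, a regulator of skeletal development and coat pattern, was the other gene whose groups did not overlap, with 28.8, 29.9 and 30.0 in WT and 27.7, 25.8 and 28.4 in KO, a log2 of −0.12. Its covered length overlapped between the genotypes, with 52620, 43020 and 47020 bp in WT and 58620, 46020 and 56420 bp in KO. The separation at Tbx15 was thus small beside that at Tbx3.

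At Tbx21 H3K27me3 covered 87.5% to 100% of the window, and at Tbx18 and Tbx20 a part of it in every library. Tbx21 had 51.0, 61.2 and 54.9 reads per kb in WT and 56.2, 59.9 and 52.0 in KO. Tbx18, which acts in somites and in the heart's epicardium, had 27.6, 25.4 and 32.2 in WT and 29.1, 23.1 and 27.1 in KO. Tbx20 had 19.9, 20.1 and 18.5 in WT and 17.2, 17.4 and 18.8 in KO. None of these was separated between the genotypes.

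**Figure D3:**
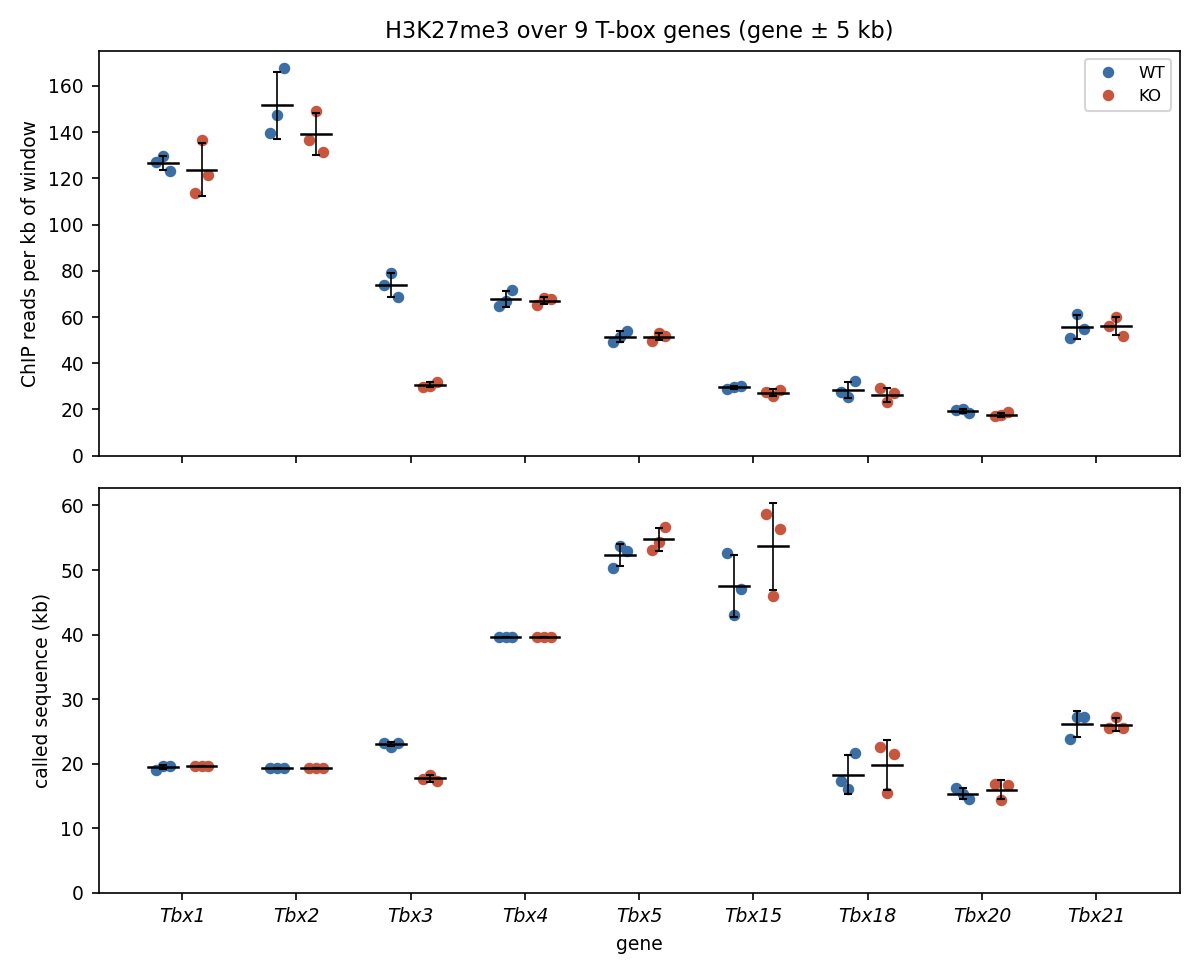
H3K27me3 at 9 T-box genes as ChIP reads per kb of window (top) and called sequence in kb (bottom). Points are single libraries, lines the mean and bars the SD of 3, and Tbx3 is the gene whose KO points (29.9 to 32.0 reads per kb) lie far from its WT points (68.6 to 79.0).

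Ordered by WT ChIP reads per kb the genes ran Tbx2 (152), Tbx1 (127), Tbx3 (73.8), Tbx4 (67.9), Tbx21 (55.7), Tbx5 (51.5), Tbx15 (29.6), Tbx18 (28.4) and Tbx20 (19.5). In that order Tbx3 and Tbx4, Tbx21 and Tbx5, and Tbx15 and Tbx18 overlapped between libraries, and each other step did not. In KO the order was the same but for Tbx3, which moved from place 3 to place 6, between Tbx5 (51.6) and Tbx15 (27.3), and overlapped neither. Tbx2 and Tbx1 overlapped in KO.

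H3K4me3 at the 8 other genes was not separated between the genotypes. Tbx2 came nearest, with 1856, 2078 and 3278 bp in WT and 3390, 2718 and 3669 bp in KO (exact permutation p = 0.2, n = 3 each), and it was separated once WT replicate 3 or KO replicate 2 was left out. Tbx1 had 2373, 1947 and 1619 bp in WT and 1543, 2172 and 1713 bp in KO. Tbx18 had 1871, 2020 and 1881 bp in WT and 1565, 1913 and 1923 bp in KO. The peak of Tbx18 was single in each library and reached the start of the gene in 2 WT libraries and 1 KO library.

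Coverage was lower at the others. Tbx20 had 1180, 965 and 1443 bp in WT and 505, 1468 and 1000 bp in KO. Tbx21 had 958, 767 and 1179 bp in WT and 842, 862 and 1167 bp in KO. Tbx15 had 891, 524 and 915 bp in WT and 672, 1263 and 830 bp in KO. Tbx4 had 961, 294 and 737 bp in WT and 652, 452 and 0 bp in KO. Per kb of window Tbx3 was the gene with most H3K4me3 in both genotypes, overlapping Tbx2 in WT (147 and 124 bp per kb) and standing above it in KO (295 and 168).

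**Figure D4:**
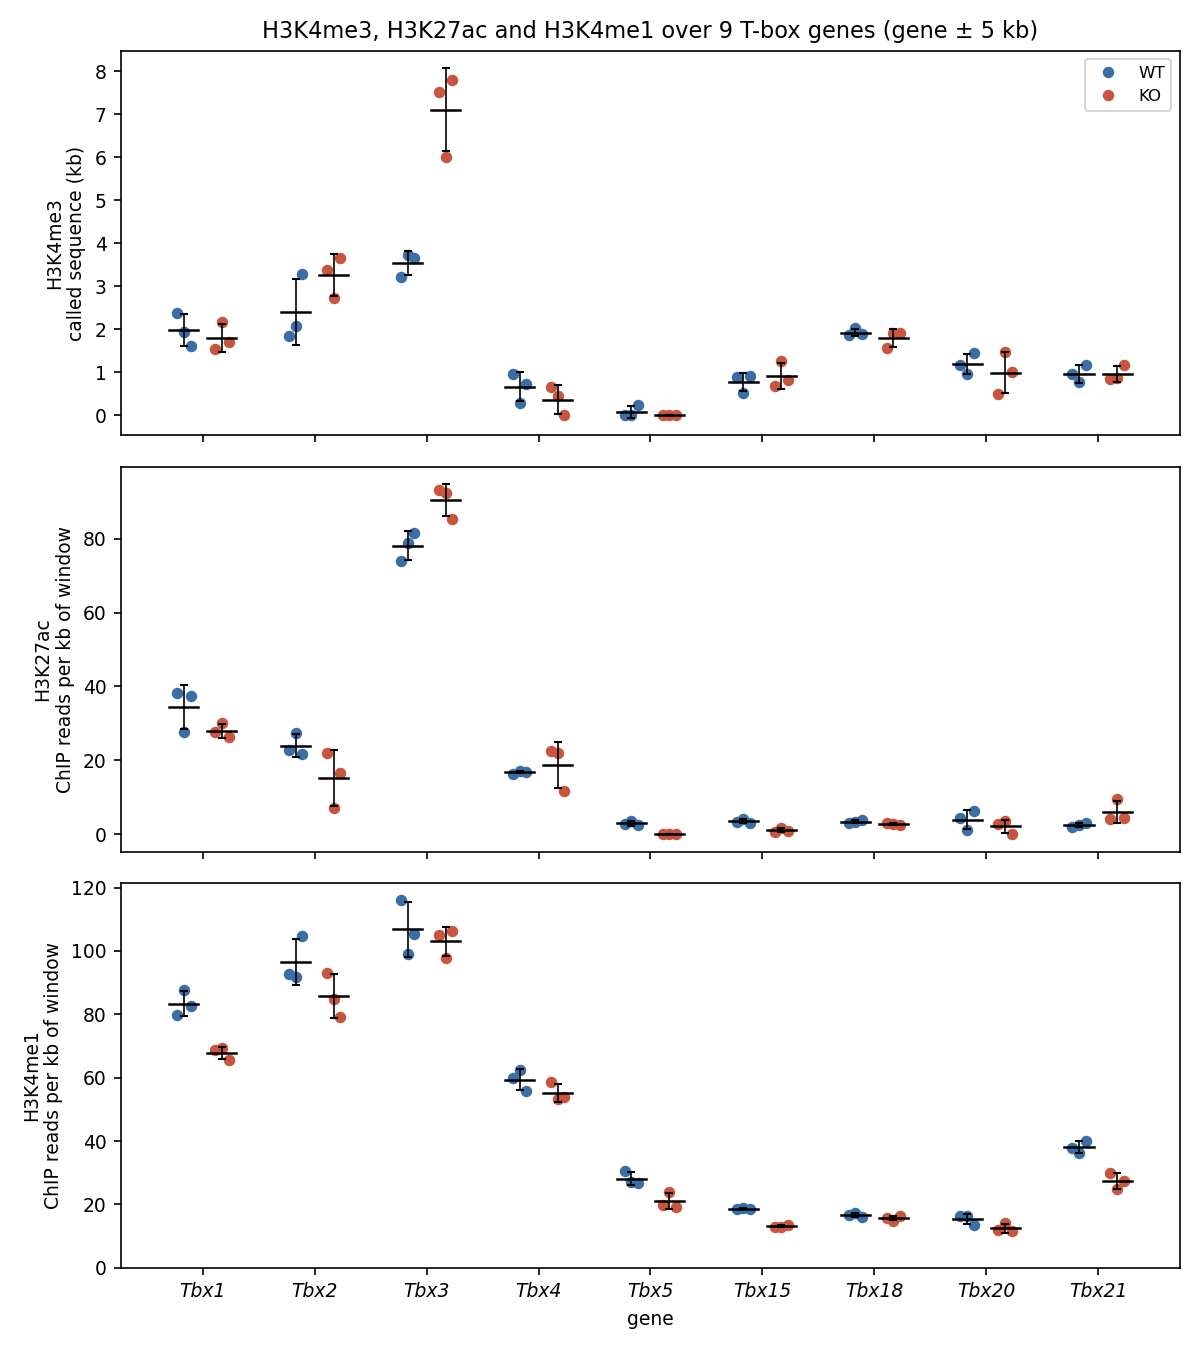
H3K4me3 called sequence in kb and H3K27ac and H3K4me1 ChIP reads per kb of window at 9 T-box genes, with single libraries as points, the mean as a line and the SD of 3 as bars. Tbx3 has the highest mean of all 3 marks, and its 3 KO libraries lie above its 3 WT libraries in H3K4me3 (6005 to 7802 against 3221 to 3737 bp). They also lie above them in H3K27ac reads, which are not scaled for depth.

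H3K27ac differed in several directions. Covered sequence was higher in all 3 KO libraries at 1 of the 9 genes, Tbx21, and lower in all 3 at Tbx5 and Tbx15. Over 16607 genes with a call these shares were 21.6% and 8.2%, and after adjustment over all of them the smallest exact permutation p was 0.335. Tbx15 had 9600, 12200 and 7000 bp in WT and 1800, 5400 and 2200 bp in KO (exact permutation p = 0.1, n = 3 each). This difference of −6467 bp was −2600 bp at an FDR under 0.01 and −1800 bp with the same number of top-ranked calls, and the groups then overlapped. Input reads over its calls moved with it, with 33.2, 33.2 and 33.1 per kb in WT and 25.6, 26.5 and 24.5 in KO, and their part was not tested. They come from 1 input per genotype, read over the calls of each library, and are not replicates.

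Tbx21 had 1131, 1531 and 1731 bp in WT and 1931, 5531 and 2931 bp in KO (exact permutation p = 0.1, n = 3 each). Most of this lay upstream of the gene: read over the gene body alone no T-box gene had more H3K27ac in all 3 KO libraries. In edgeR's quasi-likelihood test of 8 H3K27ac regions that touch the T-box windows, 2 were called, both lower in KO and 0 higher, where 18.5% of all H3K27ac regions were called lower and 3% higher. The first was the region of Tbx21 that runs on to its neighbour Tbkbp1 (97114401 to 97155000, log2 −0.18 ± 0.05 (SE), edgeR adjusted p = 0.0295). The second was an 1800 bp region inside Tbx18, near its start (87729201 to 87731000, −0.49 ± 0.14 (SE), edgeR adjusted p = 0.0301). It did not reach the start of the gene in any library.

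The Tbx18 region held 82.9, 72.8 and 90.6 ChIP reads per kb in WT and 66.1, 74.3 and 51.7 in KO, so KO replicate 2 lay within the WT range. Against the median of −0.13 for all regions the Tbx21 region was near the bulk. Neither call was made with TMM on reads per kb of call (edgeR adjusted p = 0.522 and 0.124). Both were lost without WT replicate 1, KO replicate 1 or KO replicate 3, that of Tbx21 also without WT replicate 2 or KO replicate 2, and that of Tbx18 also without WT replicate 3. At Tbx1, Tbx2, Tbx4, Tbx18 and Tbx20 the genotypes overlapped on H3K27ac covered sequence and on ChIP reads per kb of window.

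H3K4me1 reads were lower in all 3 KO libraries at 4 of the 9 genes and higher at none. This was close to the background, since 30.3% of 17552 genes with a call had lower and 17.5% higher reads in all 3 KO libraries. For covered bp the shares were 15.4% and 11.7%, and Tbx15 was the 1 T-box gene separated, with 27020, 28220 and 27420 bp in WT and 20620, 21420 and 22020 bp in KO (exact permutation p = 0.1, n = 3 each). Tbx1 had 79.9, 87.8 and 82.5 reads per kb in WT and 68.7, 69.3 and 65.7 in KO. Tbx21 had 37.7, 36.3 and 40.1 in WT and 29.9, 24.8 and 27.3 in KO.

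Adjusted over all genes the smallest exact permutation p for H3K4me1 coverage was 0.369. In edgeR's quasi-likelihood test 0 of 14 H3K4me1 regions at T-box windows were called in either direction, 4 had an unadjusted p under 0.05, and DESeq2's Wald test called 2 higher. Over all 44625 regions edgeR called 7.46% higher and 0.771% lower. Input reads over the H3K4me1 calls at Tbx15 were 33.2, 33.1 and 32.6 per kb of call in WT and 26.7, 25.7 and 26.3 in KO. H3K4me1 and H3K27ac shared 1 input per genotype, so this repeats the input difference given for H3K27ac and is not a second observation. H3K4me1 at Tbx4, Tbx18 and Tbx20 overlapped between the genotypes on both measures.

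H3K9me3 was called at 1 of the 9 genes. At Tbx20 it covered 4863, 5663 and 4863 bp in WT and 5863, 4863 and 5663 bp in KO, mostly beyond the end of the gene, and the groups overlapped. In edgeR its region was at a log2 of 0.01 ± 0.08 (SE) with an adjusted p of 0.974. Over all 27342 H3K9me3 regions edgeR called 0.322% higher and 0.11% lower, and covered bp was higher in all 3 KO libraries at 4.76% and lower at 11.4% of 12110 genes. The adjusted exact permutation p for H3K9me3 coverage was nowhere below 0.619.

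**Figure D5:**
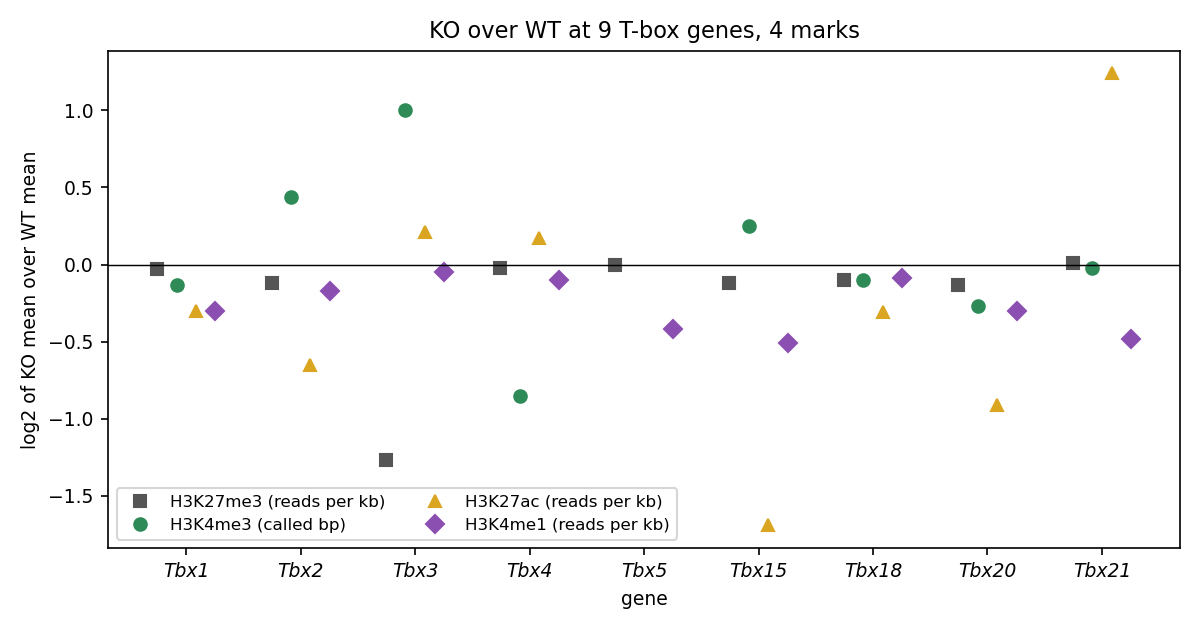
The log2 of the KO mean over the WT mean at each gene, for H3K27me3, H3K27ac and H3K4me1 (ChIP reads per kb of window) and H3K4me3 (called bp), a point being 1 gene and mark, with none at Tbx5 for H3K4me3 and H3K27ac, where KO had no call. Tbx3 is the gene with H3K27me3 at −1.27 and H3K4me3 at 1.00, while H3K27me3 lies between −0.13 and 0.01 at the others.

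The 8 T-box genes outside the list were T, Eomes, Tbr1, Mga, Tbx6, Tbx10, Tbx19 and Tbx22, of which 6 had an H3K27me3 call. Tbr1, a regulator of cortical neurons, had H3K27me3 over 17114, 17914 and 17514 bp in WT and 16914, 16714 and 16914 bp in KO, and 71.1, 80.0 and 90.8 reads per kb in WT against 66.8, 70.4 and 69.4 in KO. Its log2 of reads, −0.23, was small beside that of Tbx3. In H3K4me3 coverage, Mga, which encodes a MAX-binding repressor with a T-box, had 1888, 2134 and 1965 bp in WT and 2430, 2640 and 2566 bp in KO. Tbx10 had 1217, 1579 and 1544 bp in WT and 1099, 1190 and 1039 bp in KO. Covered sequence of the other 5 was not separated in either mark.

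The 15 protein-coding genes next to the 9 on either side, other than T-box genes, were counted by H3K27me3 coverage, and 3 were higher and 2 lower in all 3 KO libraries, beside 10.9% and 7.61% of all genes. Before Tbx3 the next was Med13l, a subunit of the Mediator kinase module, 905230 bp away, with H3K27me3 over 0, 2638 and 4322 bp in WT and 838, 0 and 0 bp in KO. After Tbx5 came Rbm19, an RNA-binding protein of ribosome biogenesis, 231245 bp away, with 181, 2317 and 981 bp in WT and 2717, 4117 and 3517 bp in KO. Rbm19 had H3K27ac at 24.6, 24.2 and 27.4 reads per kb in WT and 41.0, 42.0 and 37.5 in KO (exact permutation p = 0.1, n = 3 each). For H3K4me3 2 of the 15 were higher, Med13l among them, and 1 was lower, beside 24.5% and 7.25% of all genes.

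The genes outside the family most like Tbx3 were ranked by the root mean square difference in the covered share of the window over all 30 lists. Among the nearest 5 were Mt2 (0.076), a metallothionein, Pcdh1 (0.077), a protocadherin, Nxph4 (0.081), a neurexophilin, and Rasl10a (0.082), a Ras-like GTPase. These 4 had broad H3K27me3, H3K27ac and H3K4me1 together, as Tbx3 did, but their log2 KO/WT of H3K27me3 reads was −0.32 to 0.27, against −1.27 at Tbx3. The nearest T-box gene was Tbx1 at 0.263, with 1205 genes nearer to Tbx3 than it, and Tbx5 was at 0.547. Among 21938 protein-coding genes, 1406 were nearer to Tbx3 than Tbx2 was and 2104 nearer than Tbx4 was. For the rest this number ran from 9640 at Tbx21 to 13943 at Tbx20. By covered sequence some unrelated genes were thus closer to Tbx3 than any paralogue, while Tbx1, Tbx2 and Tbx4 were closer to it than most genes.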

How the data were processed

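ChIP-seq of 5 histone marks was analysed in 30 libraries, 3 IκBα-WT and 3 IκBα-KO for each mark, grouped by their labels. The members and gene lists were chosen with earlier results of these data known. Per the labels, the submitters' processing notes name GRCm38, Trim Galore 0.6.6, Bowtie2 2.4.4, SAMtools 1.15, deepTools 3.5.1, SICER 0.0.52 and MACS2 2.2.7.1. The methods state for H3K4me3, H3K27me3 and H3K4me1 that the authors aligned to GRCm38, and the Drosophila spike-in of H3K27me3 was discarded, so its values are not set against a spike-in. How H3K9me3 reads were processed is not given in the sources used here. For H3K4me3 the authors deposited MACS2 peaks with a score, a fold (ratio) over input and −log10 p-values and q-values. For the other marks the authors deposited epic2 regions with counts of ChIP and input reads, a p-value and FDR, a log2 fold change over input and a score. All lists were cut at 0.05 by the authors and called separately for each library, with 1 input per genotype and mark. H3K27ac and H3K4me1 shared theirs. The labels give H3K27ac and H3K4me1 the same antibody, the methods another for H3K27ac.

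The 19 autosomes, X and Y entered. Windows are gene bodies of GENCODE M21 (same build) with 5000 bp on either side, and coordinates are 1-based. Reads of an epic2 call were assigned to a window in proportion to the bp inside it. A gene counts as separated when all 3 KO values lie above or below all 3 WT values, among genes with a call in any of the 6 libraries. Genotypes were compared by the difference of means in two-sided exact permutation tests over 20 assignments, whose smallest p is 0.1. ChIP counts of merged regions called in all 6 libraries were fitted for each mark with edgeR 4.0.16 (R 4.3.3) without covariates, with TMM, covered length as offset and Benjamini-Hochberg adjusted p under 0.05 over all regions. SE is the log2 fold over the square root of F and is approximate. For H3K27me3 no p is given. DESeq2 1.42.0, other scalings, stricter calls, other windows and left-out libraries were alternatives. Replicate numbers did not pair the libraries (correlations of −0.02 to 0.03). The named genes are all 9 members, T-box relatives separated in H3K27me3 or H3K4me3 coverage, the neighbours of Tbx3 and Tbx5, and the 5 genes nearest to Tbx3, of which 1 is not reported here. Python 3.11.15, numpy 2.4.6, pandas 2.3.3, SciPy 1.17.1 and matplotlib 3.10.9 were used, and the scripts were tested on simulated data. The p-values measure the spread between clones of 1 line, and counts cover counting error of reads that are not independent molecules.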

Additional observations from a re-analysis of the deposited data

How the results depend on the processing

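The choice of window and measure moved several counts of T-box genes whose libraries did not overlap. In H3K27me3 coverage 1 gene was lower in KO, with 0 in the promoter window and 2 by ChIP reads, and in H3K4me3 0 were lower, with 1 in the promoter window (Tbx4) and 2 with the same number of top-ranked calls (Tbx15 and Tbx20). The 1 gene with more H3K4me3 in KO was Tbx2, not Tbx3, in the promoter window. In H3K27ac 1 gene was higher, with 0 over the gene body, 0 in the promoter window and 2 by reads, and 2 were lower, with 1 in the promoter window, 1 at an FDR under 0.01 and 0 with the same number of top-ranked calls. In H3K4me1 0 were higher, with 1 in the promoter window, and 1 was lower, with 3 over the gene body, 2 in the promoter window and 4 by reads. Leaving out 1 library gave 1 to 2 higher and 0 to 1 lower for H3K4me3, 0 to 2 higher for H3K27me3, 1 to 2 higher and 2 to 4 lower for H3K27ac, and 1 to 3 lower for H3K4me1. Tbx3 stayed lower in H3K27me3 whichever library was left out.

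In edgeR the log2 of the Tbx3 H3K27me3 regions was −1.58 and −1.77 without length offset, and −0.76 for the first with TMM on reads per kb of call. The 2 lower H3K27ac regions became 6 without normalization, 1 by DESeq2, 1 without offset, 1 among regions of like length, 0 with TMM on reads per kb and 0 to 2 without 1 library. The 0 higher became 1 without offset, 1 among regions of like length and 1 with TMM on reads per kb. For H3K4me1 0 higher became 2 by DESeq2, 1 without offset and 0 to 1 without 1 library, and 0 lower became 2 without normalization, 3 without offset and 3 among regions of like length. Over all H3K4me1 regions 3328 higher and 344 lower calls became 1813 and 721 with TMM on reads per kb. The causes were not tested. With a replicate block the Tbx3 regions were at −0.86 and −1.13 and 3 H3K27ac regions were lower, and no other count changed. No single value changed sign, but TMM on reads per kb turned the balance of H3K27ac calls at T-box regions, and over all regions from 721 higher and 4454 lower to 2099 and 1064. Regions not called in all 6 libraries have no counts in the lists and were not fitted, which limits weak marks such as H3K27ac at Tbx5.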
